A study of Homo sapiens with 12 samples.

Results

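A group of 10 long noncoding RNA genes that carry small nucleolar RNAs (snoRNAs) in their introns is described here, namely GAS5, SNHG1, SNHG5, SNHG6, SNHG7, SNHG8, SNHG12, SNHG15, SNHG16 and ZFAS1. They were picked by gene symbol from the 25268 symbols with a deposited expression value, without a threshold on that value. All 10 were present, and all 10 were among the 14676 genes whose mean level was high enough to be tested.

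The RNA came from HEK293, an established human embryonic kidney cell line. Cells were transiently transfected with 2 µg of the plasmid pCMV6-HIS-HA-RBMX, in which a viral CMV promoter drives His- and HA-tagged RBMX, or with the same amount of the empty vector. RBMX is an RNA-binding protein of the hnRNP G type, and the empty-vector cells, labelled wild type, served as control. Elongating ribosomes were arrested with cycloheximide in every culture, nuclei and debris were spun out, and the lysates were separated on sucrose gradients. Total RNA was pooled from 20% of every gradient fraction and polysomal RNA came from the fractions in which several ribosomes sit on an RNA. For each of the 4 combinations of vector and fraction there were 3 libraries, made from 500 ng of RNA each, and thus 12 libraries from 6 cultures. Because nuclei had been removed, total RNA here means the RNA of the cleared lysate.

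A snoRNA host gene is transcribed, capped, spliced and polyadenylated like a messenger RNA gene, and its intron-encoded snoRNAs are trimmed from the excised introns. Box C/D snoRNAs guide 2′-O-methylation of ribosomal RNA and H/ACA snoRNAs guide its pseudouridylation. The spliced exons hold only short reading frames, yet they reach the cytoplasm, can be bound by ribosomes and are known substrates of nonsense-mediated decay (NMD). NMD is a pathway that destroys RNAs on which a ribosome stops well upstream of an exon junction. Many host RNAs, like the messengers of ribosomal proteins, belong to the 5′ terminal oligopyrimidine (TOP) class, whose first base is a C followed by a run of pyrimidines and whose loading on ribosomes varies with cell growth.

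The first bases of 4 members are shown because they carry such a run of pyrimidines at or near the annotated start. Each window of 30 bases covers 10 bases before and 20 bases from the RefSeq transcription start on, in GRCh38.p14, read on the strand of the transcript. Capitals mark every run that opens with a C followed by at least 4 bases, each C or T, searched on this strand only.
SNHG5, chr6:85678714-85678743, minus strand: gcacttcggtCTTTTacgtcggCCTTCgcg
ZFAS1, chr20:49278632-49278661, plus strand: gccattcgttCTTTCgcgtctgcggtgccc
SNHG12, chr1:28581854-28581883, minus strand: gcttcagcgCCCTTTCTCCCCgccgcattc
SNHG7, chr9:136728165-136728194, minus strand: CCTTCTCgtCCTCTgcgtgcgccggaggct
In SNHG5 and ZFAS1 a run begins on the first transcribed base, and SNHG5 has a second from base 13 on. In SNHG12 it begins 1 base before the annotated start and extends over 12 bases. SNHG7 has a run of 7 bases that begins 10 bases before its start, outside the transcript, and a run of 5 bases that begins 1 base before it. RefSeq windows were found for 8 of the 10 members and 6 of these 8 hold such a run, as do 38.4% of the 35116 promoter windows of the same length. Not shown are SNHG8 and SNHG16, each with a run of 6 bases. The windows of GAS5 and SNHG1 hold no such run. The RefSeq start lay between 0 and 1259 bases from the GENCODE start of the same gene, so a match describes the window and is no proof of the base at which the RNA begins.

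In GENCODE v29 on GRCh38 the members are spread over 9 chromosomes, and the longest RefSeq-linked transcript of each has 2 to 13 exons and a spliced length of 430 to 2424 bases. GAS5, named for its accumulation in growth-arrested cells, lies on chromosome 1 from 173863900 to 173868882 on the minus strand, with 13 exons in 723 bases. It encloses 11 snoRNAs annotated in RefSeq, 10 of them of the box C/D class. SNHG1, a gene long known as one whose introns rather than exons are conserved, lies on chromosome 11 from 62851988 to 62855914 on the minus strand and encloses 9. SNHG5 on chromosome 6 from 85660950 to 85678748 (minus strand) carries SNORD50A and SNORD50B, and its 430 bases make it the shortest transcript. SNHG6 on chromosome 8 from 66921684 to 66926398 (minus strand) carries SNORD87. SNHG16 on chromosome 17 from 76557766 to 76565348 (plus strand) carries 3 members of the SNORD1 group. ZFAS1 on chromosome 20 from 49278178 to 49295738 (plus strand) carries 3 members of the SNORD12 group and runs antisense to ZNFX1. These 6 are mainly hosts of box C/D snoRNAs.

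The other 4 mainly host H/ACA snoRNAs. SNHG7 on chromosome 9 from 136721366 to 136728184 (minus strand) encloses 2, and both lie within an exon of the 2-exon transcript that was selected by length. SNHG8 on chromosome 4 from 118278709 to 118279823 (plus strand) carries SNORA24. SNHG15 on chromosome 7 from 44983023 to 44986961 (minus strand) carries SNORA9. SNHG12 on chromosome 1 from 28578538 to 28583132 (minus strand) carries 3 H/ACA snoRNAs and SNORD99. The first reading frame of these transcripts spans 5 to 117 codons. In 9 of the 10 at least 1 exon junction lies 50 or more bases beyond the stop of that frame, which is the arrangement NMD is known to act on. SNHG7, with its 2-exon transcript selected by length, is the exception. Counted from the stop of the longest frame instead, such a junction is present in 5 of the 10. The share among other transcripts was not computed.

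Some members share bases with a coding gene on the other strand. Exons of MCMDC2 overlap 56.3% of the spliced bases of SNHG6, with a mean level of 0.239 FPKM for MCMDC2 against 136 for SNHG6. For ZFAS1 the overlap with ZNFX1 was 24.7% of its bases, with 9.31 against 91.7 FPKM. The annotated gene AC015802.6 overlaps 67.4% of SNHG16. TRNAU1AP overlaps 0.366% of SNHG12. No source used here states that strand was kept in counting, so fragments of these pairs cannot be told apart.

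Levels are FPKM as deposited, a unit of fragments per kilobase of transcript relative to the mapped fragments. Whether the libraries were also rescaled to each other was not examined. The levels are relative to the other RNAs of the same library, and the number of fragments behind a library is unknown. Vector labels were checked with the overexpressed gene. RBMX stood between 87.4 and 148 FPKM in the 6 control libraries and between 1072 and 2073 in the 6 RBMX libraries (limma adjusted p = 0.00269 in total and 0.0415 in polysomal RNA). HEK293 markers were present in all libraries, VIM at 217 to 577 FPKM and KRT8 at 63.4 to 188, whereas PTPRC, ALB, DCN and PECAM1, markers of other cells, did not exceed 0.226. COL1A1, a fibroblast collagen, was at 3.14 to 8.61. Both libraries of control culture 3 stood apart, with Spearman correlations of 0.980 to 0.983 to the other control total libraries and 0.976 to the other control polysomal libraries, where the other pair reached 0.997 and 0.999. VIM was 248 and 217 FPKM in that culture against at least 486 in every other library. Small RNA genes took 40.6 to 72.9% of the FPKM sum of a library, and the 10 host genes took 0.118 to 0.466% of the rest.

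The host RNAs were abundant. SNHG5 was the highest member in total RNA, with 495, 409 and 742 FPKM in control cultures 1 to 3 and 461, 552 and 551 in RBMX cultures 1 to 3. In polysomal RNA the same gene stood at 77.1, 81.1 and 268 FPKM in control cells and at 109, 44.1 and 95.2 in RBMX cells. Every polysomal library was thus below every total library, and control culture 3 was highest in both fractions. SNHG8 followed in total RNA with 388, 392 and 528 FPKM in control and 365, 439.8 and 449.7 in RBMX cells. Its polysomal values of 180.2, 182 and 376 in control and 212, 144 and 192 in RBMX cells made it the highest member there. SNHG8 was below its total values in all polysomal libraries except that of control culture 3, which lay above the lowest total library of the RBMX cells.

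SNHG6 and SNHG15 came next. SNHG6 measured 193, 164 and 247 FPKM in control total RNA and 180.1, 198 and 188 in RBMX total RNA. Its polysomal values were 63.7, 61.1 and 138 in control and 75.8, 47.9 and 71.1 in RBMX cells, all below every total value. SNHG15, a short-lived RNA, measured 134, 127 and 182 FPKM in control total RNA and 174, 206 and 174 in RBMX total RNA. Polysomal SNHG15 was at 59.2, 63.6 and 123 in control and at 73.3, 67.6 and 82.8 in RBMX cells. The fractions did not overlap for SNHG15 either.

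ZFAS1, SNHG1, GAS5 and SNHG16 formed a group near 100 FPKM. ZFAS1 measured 115, 100.5 and 171 FPKM in control total and 127, 162 and 123 in RBMX total RNA. In polysomal RNA it was at 38.5, 44.3 and 94.3 in control and at 50.8, 28 and 45.2 in RBMX cells, below all total values. SNHG1 measured 105, 88.4 and 156 FPKM in control total and 148, 177 and 135 in RBMX total RNA. Its polysomal values of 46.7, 45.6 and 103 in control and 71.1, 55.5 and 61.5 in RBMX cells overlapped total RNA only through control culture 3. GAS5 measured 111, 90.7 and 143 FPKM in control total and 121, 137 and 118 in RBMX total RNA. Polysomal GAS5 stood at 33.0, 35.6 and 77.1 in control and at 53.1, 39.7 and 40.9 in RBMX cells, again below every total value. SNHG16 measured 97.7, 105 and 125 FPKM in control total and 83.1, 96.1 and 94.8 in RBMX total RNA. In polysomal RNA it was at 46.7, 45.2 and 83.5 in control and at 41.0, 43.6 and 44.6 in RBMX cells. The highest of these, from control culture 3, exceeded the lowest RBMX total library by a small margin.

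SNHG7 and SNHG12 were the lowest members in total RNA. SNHG7 measured 61.2, 60.5 and 71.7 FPKM in control total and 59.7, 67.2 and 73.4 in RBMX total RNA. Polysomal SNHG7 was close to these levels, at 45.1, 48.0 and 67.0 in control and 50.6, 44.4 and 55.8 in RBMX cells. Its fractions overlapped in control cells and not in RBMX cells. SNHG12 measured 33.1, 23.8 and 39.7 FPKM in control total and 46.5, 44.4 and 38.5 in RBMX total RNA, against 14.4, 15.4 and 28.2 in control polysomal and 19.7, 18.3 and 20.2 in RBMX polysomal RNA. Control culture 3 again made its fractions overlap in control cells.

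**Figure D1:**
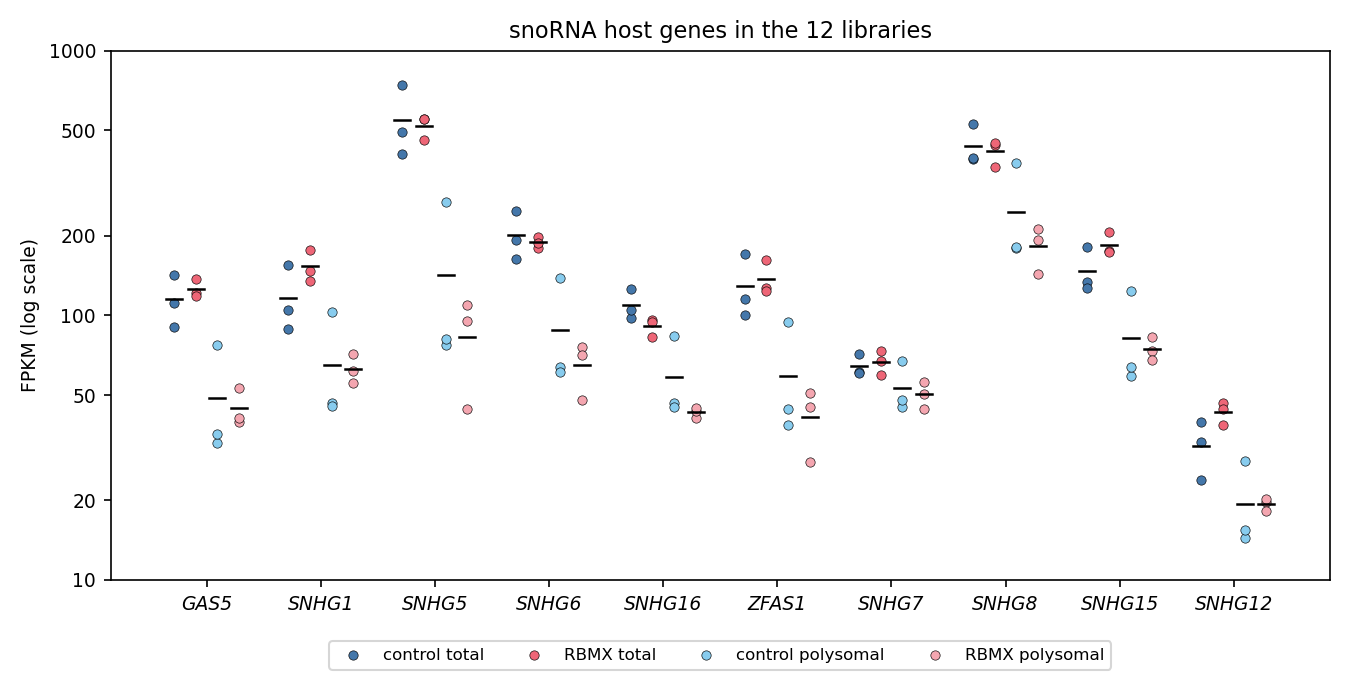
FPKM of each host gene in the 12 libraries on a log scale, 3 points per combination of vector and fraction, with a bar at the group mean. The 2 total RNA groups sit above the 2 polysomal groups for each gene, least so for SNHG7, and the highest light blue point is control culture 3.

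Ordered by mean FPKM, which allows for length, control total RNA ran from SNHG5 (549 ± 173, SD, n = 3) and SNHG8 (436 ± 79.8) through SNHG6, SNHG15, ZFAS1, SNHG1, GAS5 and SNHG16 to SNHG7 (64.4 ± 6.27) and SNHG12 (32.2 ± 7.97). The ranges of SNHG5 and SNHG8 overlapped, as did each neighbouring pair from SNHG6 to SNHG16. The steps from SNHG8 to SNHG6, from SNHG16 to SNHG7 and from SNHG7 to SNHG12 had no overlap. In control polysomal RNA SNHG8 (246 ± 113) moved ahead of SNHG5 (142 ± 109), and SNHG12 alone (19.3 ± 7.70) was separate from its neighbour. In RBMX polysomal RNA SNHG8 (183 ± 35.2) was separate from SNHG5 (82.8 ± 34.2) at the top and SNHG12 (19.4 ± 0.983) from ZFAS1 (41.3 ± 11.9) at the bottom. SNHG7 stood at rank 6 there, against rank 9 in total RNA.

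Polysomal and total RNA were then compared, which asks how the level of a host RNA among polysomal RNAs stands to its level in total RNA. Both levels are relative to the other RNAs of their library, so the comparison does not give the share of molecules on ribosomes. Over all 12 libraries every member was lower in polysomal RNA, and 9 of the 10 passed the test (limma, Benjamini-Hochberg adjusted p up to 0.05), against 6.61% of the genes tested called in either direction and 5.12% called lower. The median difference of the members was -1.09 on the log2(FPKM + 1) scale, beside -0.0025 over all genes tested. SNHG5 fell furthest, by 2.44 (standard error 0.34, adjusted p = 0.0084). ZFAS1 had a difference of -1.47 (standard error 0.25, adjusted p = 0.0177), SNHG6 of -1.41 (standard error 0.21, adjusted p = 0.0113) and GAS5 of -1.40 (standard error 0.21, adjusted p = 0.0105). SNHG15 (-1.10), SNHG1 (-1.08), SNHG8 (-1.05), SNHG16 (-1.0) and SNHG12 (-0.93) followed with adjusted p from 0.00916 to 0.0246. SNHG7 had a difference of -0.34 (95% confidence interval -0.59 to -0.10) and did not pass (adjusted p = 0.0863). With the culture as a block, that is with each polysomal library set against the total library of its own number, all 10 passed, SNHG7 included (adjusted p = 0.0278), where 17.6% of genes did.

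The count of 9 rested in part on single libraries. It was 5 without control polysomal replicate 1 or without control polysomal replicate 2 and 4 without RBMX total replicate 2, and it was 10 at most. The number of all genes called moved too. It was 112 to 2060 over the 12 fits with 1 library left out, against 970 with all libraries. GAS5, SNHG5, SNHG6 and SNHG16 passed in all 27 alternatives tried, SNHG15 in 26, SNHG12 and ZFAS1 in 22, SNHG1 in 20, SNHG8 in 18 and SNHG7 in 6. No alternative, rescaling included, turned the direction of a member in this comparison. In bulk RNA a change in fewer cells and a smaller change in every cell cannot be told apart.

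Within each culture the polysomal level was also expressed as a percentage of the total level. It was below 100% for all 10 members in all 6 cultures, which held for 16.5% of the genes tested. The median over the members was 43.8, 45.2 and 66.4% in control cultures 1 to 3 and 43.1, 32.0 and 44.1% in RBMX cultures 1 to 3, while the median over all genes tested was between 97.6 and 102% in each culture. SNHG5 had the lowest percentage of the 10 in 6 of 6 cultures, with 15.6, 19.8 and 36.1% in control and 23.7, 8.0 and 17.3% in RBMX cells. SNHG7 had the highest in 6 of 6, with 73.8, 79.4 and 93.4% in control and 84.7, 66.0 and 76.0% in RBMX cells.

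The other members lay between these. GAS5 was at 29.7, 39.2 and 54.1% in control and 43.9, 29 and 34.5% in RBMX cells. ZFAS1 reached 33.3, 44.1 and 55.2% in control and 39.9, 17.3 and 36.7% in RBMX cells, and SNHG6 was similar with 38.4 ± 10.6% (SD, n = 6). For these 3 the rank among the 10 was never above 6. SNHG12 averaged 52.5 ± 12.7%, SNHG16 49.9 ± 8.51%, SNHG8 49.6 ± 13.4%, SNHG1 47.9 ± 11.3% and SNHG15 47.4 ± 11.7% (SD, n = 6 each). These 5 overlapped and changed ranks between cultures. Control culture 3 gave the highest percentage of the 6 cultures for every member, and in RBMX culture 2 it was lowest for 9 of them, SNHG16 being the exception with its minimum in control culture 2.

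**Figure D2:**
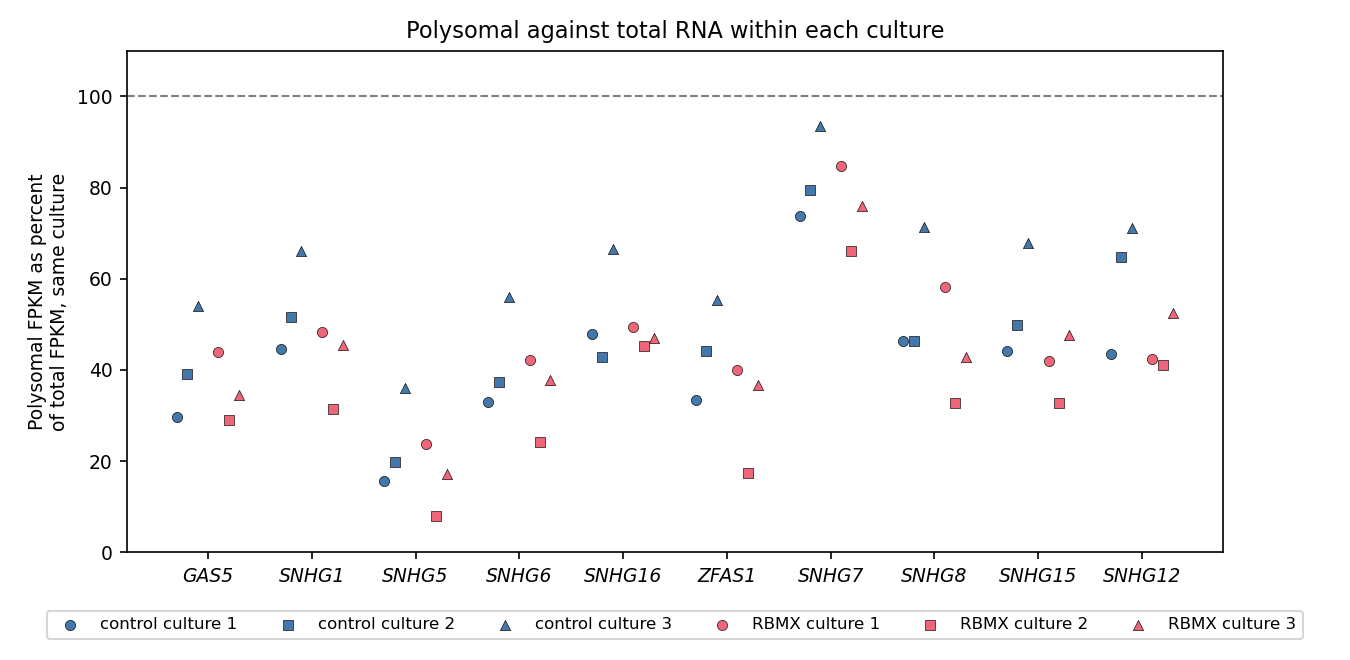
Polysomal FPKM as a percentage of total FPKM of the same culture, 1 point per culture, with the dashed line at 100%. All points lie below the line, SNHG5 is lowest and SNHG7 highest in each culture, and the blue triangles of control culture 3 stand above the rest.

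Taken by vector, the calls came from the RBMX cells. There 9 of the 10 members passed as lower in polysomal RNA, against 1.34% of the genes tested in either direction and 1.31% lower, with differences from -2.73 for SNHG5 to -1.06 for SNHG16 and adjusted p from 0.0111 to 0.0493. SNHG7 did not pass (-0.40, 95% interval -0.69 to -0.12, adjusted p = 0.146). With the culture as a block 0 of the 10 passed (limma adjusted p from 0.115 to 0.183), where 4 genes or 0.0273% did in all, while all 10 had an unadjusted p under 0.05, beside 13.3% of genes lower in this way. Without any 1 of the 6 RBMX libraries between 0 and 3 members passed. Between 10 and 42 genes passed in all in these fits, against 196 with all 6 libraries. The calls in RBMX cells, for the members as for other genes, thus depended on having all 6 libraries.

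In control cells 0 of the 10 members passed (limma, adjusted p from 0.597 to 0.729), where 0.0818% of the genes tested did, and 7 of the 10 had an unadjusted p under 0.05, beside 8.04% of all genes in either direction and 4.84% lower. The differences ran from -2.15 for SNHG5 (95% interval -3.53 to -0.77) to -0.28 for SNHG7 (-0.71 to 0.14), with a median of -0.92 against -1.29 in RBMX cells. Total and polysomal libraries did not overlap for 7 members, GAS5, SNHG5, SNHG6, SNHG8, SNHG15, SNHG16 and ZFAS1, which was the case downwards for 7.31% of genes. With the culture as a block 0 passed as well (limma adjusted p from 0.150 to 0.205), beside 0.0409% of genes, and all 10 had an unadjusted p under 0.05, beside 11.4% of genes lower in this way. Control culture 3 decided this count, since 7 of the 10 passed without its 2 libraries, when 199 genes passed in all.

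Related gene lists were set beside the members in the comparison over all 12 libraries. Of all genes tested 6.61% passed there in either direction, and 17.6% passed with the culture as a block. Of 9 other noncoding snoRNA host genes tested, 8 were lower in polysomal RNA and DANCR, named as an antagonist of differentiation, did not pass (-0.63, adjusted p = 0.133). With the culture as a block all 9 passed as lower, DANCR included (adjusted p = 0.0121). SNHG9 fell by 1.36 (adjusted p = 0.0141) and EPB41L4A-AS1 by 1.28 (adjusted p = 0.0109), while SNHG17 (-0.46) and SNHG11 (-0.47) moved least among the 8. SNHG3, SNHG4, SNHG10 and SNHG20 had differences from -0.86 to -0.69, and the list's median was -0.69. Among 15 protein-coding genes that also carry snoRNAs, 9 were lower, none was higher and the median was -0.42. Among those lower were TPT1, a growth-linked tumour protein (-1.34), NOP56, a core protein of box C/D particles (-0.79), the ribosomal protein genes RPS3, RPL13A and RPL7A (-0.73 to -0.42) and the translation factors EEF1B2 (-0.45) and EIF4A2 (-0.34). Coding hosts that did not pass included GNB2L1, a ribosome-bound scaffold (-0.37, adjusted p = 0.113), and HSPA8, a chaperone (-0.0072, adjusted p = 0.991). The block raised the count from 9 to 11, adding GNB2L1 as lower (adjusted p = 0.0368) and NCL, the nucleolar protein nucleolin, as higher (0.28, adjusted p = 0.031 against 0.632 without the block). By sign alone, all 9 of the other noncoding hosts and 13 of the 15 coding hosts were below 0, as were 7425 of the 14676 genes tested.

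The messengers that encode NMD factors were compared in the same way, which does not measure the activity of the pathway. Of the 15, 0 passed (limma) and 3 had an unadjusted p under 0.05, beside 24.1% of all genes, with a median of 0.067 and differences from -0.11 to 0.23. The most abundant, RNPS1, MAGOH and EIF4A3, all parts of the exon junction machinery, were at 0.026, -0.0075 and 0.094. With the culture as a block 2 of the 15 passed, where 17.6% of all genes did. Both were higher in polysomal RNA, UPF2 (0.19, limma adjusted p = 0.0481) and UPF3B (0.14, adjusted p = 0.0322). Among 8 protein-coding messengers known as NMD targets 3 passed as lower, with a median of -0.35. These were the stress factors ATF4 (-0.37, adjusted p = 0.039), DDIT3 (-0.53, adjusted p = 0.0468) and GADD45A (-0.33, adjusted p = 0.0184), whereas CDKN1A, the cell cycle inhibitor p21, was at 0.025 and TBL2 at 0.016. The block raised this count from 3 to 6, all lower, with ATF3 (-0.38, adjusted p = 0.00867), UPP1 (-0.38, adjusted p = 0.0132) and GADD45B (-0.18, adjusted p = 0.044) added. Of 8 core proteins of snoRNA particles only NOP56 passed, and FBL, the methyltransferase of box C/D particles, was at -0.077. Long noncoding RNAs described as nuclear were also compared. They were present in the lysate although nuclei had been spun out. In control total RNA NEAT1 averaged 138 FPKM, beside 115 for GAS5, while TUG1 averaged 49.5 and MALAT1 18.0. How they came to be there was not tested, so they are no plain contrast to the members. Of the 3 tested 0 passed in limma without the block and 1 had an unadjusted p under 0.05, with NEAT1 at -0.99 (adjusted p = 0.0714), TUG1 at 0.037 and MALAT1 at 0.54 (adjusted p = 0.522). NEAT1 passed as lower with the culture as a block (adjusted p = 0.00824) and also without control polysomal replicate 3 (-1.19, adjusted p = 0.0196). The value of MALAT1 rested on RBMX culture 2, where polysomal MALAT1 was at 743% of total, beside 91.2 to 164% in the other 5 cultures, and it was 0.17 without RBMX polysomal replicate 2.

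**Figure D3:**
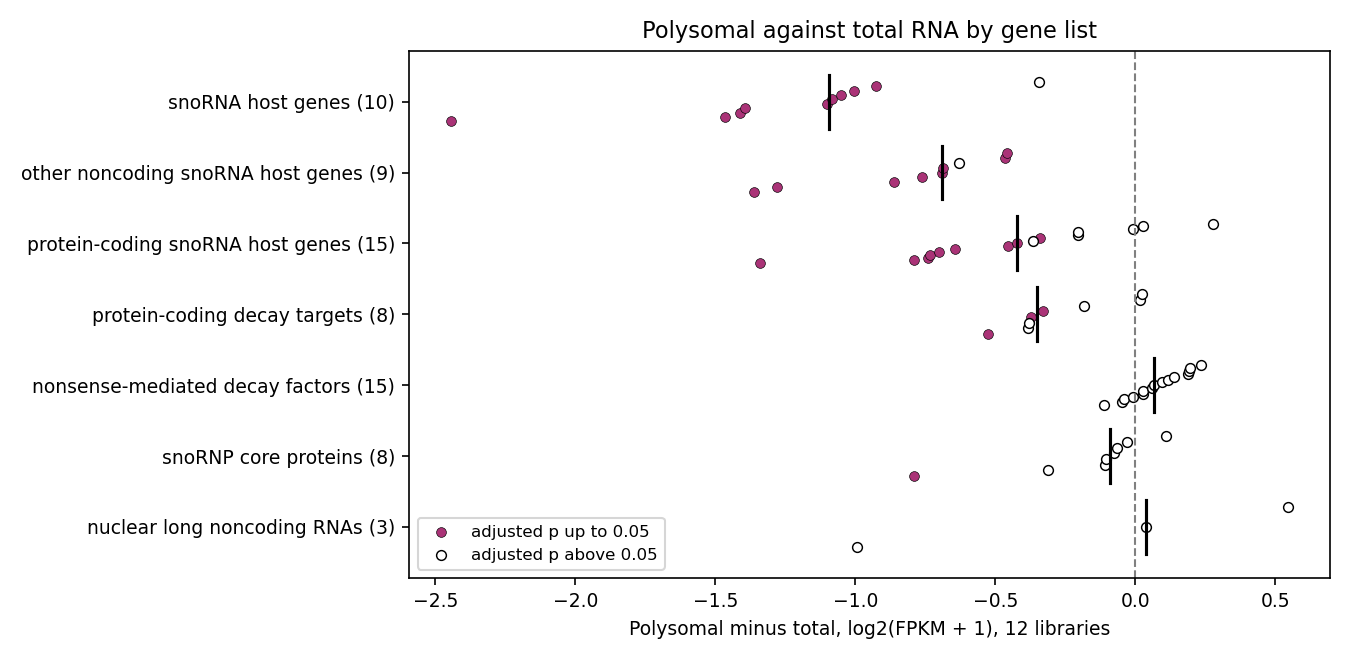
Polysomal minus total difference over 12 libraries on the log2(FPKM + 1) scale, 1 point per gene and 1 row per gene list except that of the intronic snoRNAs, which is not drawn, filled where the limma adjusted p is up to 0.05, with a bar at the list median and a dashed line at the median of all genes tested. Of the lists drawn, the 10 host genes have the lowest median, at -1.09, and NMD factors lie around the dashed line.

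Among the members the polysomal difference was compared with features of the transcripts, as a description over 10 points that share the same libraries. Longer spliced transcripts had differences closer to 0 (Spearman rho 0.72, Pearson r 0.70), SNHG5 being the shortest transcript with the lowest value and the transcript selected for SNHG7 having 2157 bases. The number of exons (rho -0.38) and the length of the longest reading frame (rho 0.34) varied less regularly with it. For the length of the first reading frame rho was -0.195. The longest reading frames ran from 37 codons in SNHG5 to 117 in ZFAS1, the 2 members with the lowest differences.

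The effect of RBMX itself was asked in each fraction. In total RNA 0 of the 10 host genes passed (limma adjusted p from 0.298 to 0.956) and 0 had an unadjusted p under 0.05, against 0.164% and 18.8% of the genes tested. Differences of RBMX minus control ran from -0.25 for SNHG16 to 0.44 for SNHG12, with a median of 0.084 that was -0.024 without control total replicate 2 and 0.26 without control total replicate 3. SNHG12 averaged 43.1 ± 4.14 FPKM in RBMX and 32.2 ± 7.97 in control cells (95% interval of the log2 difference -0.05 to 0.92), and SNHG1 153 ± 21.5 against 116 ± 35.0 (-0.14 to 1.00). SNHG15 was at 185 ± 18.6 against 148 ± 29.6 (-0.06 to 0.73, SD, n = 3 each). SNHG16 alone had groups that did not overlap, 91.3 ± 7.15 FPKM in RBMX against 109 ± 14.3 in control cells, as 15.4% of all genes did in the downward direction (adjusted p = 0.302). SNHG5, SNHG6, SNHG7 and SNHG8 lay between -0.07 and 0.05, and GAS5 and ZFAS1 were at 0.15 and 0.12.

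In polysomal RNA 0 of the 10 passed as well (limma adjusted p from 0.555 to 0.985, and 0 at an unadjusted p under 0.05), against 0.0477% and 11.7% of the genes tested. Most of the 7 genes that passed in all were small RNA genes. The median difference of the members was -0.21, with 8 of the 10 below 0. SNHG5 had the lowest at -0.62, with an interval of -2.12 to 0.89, which covers both a fall and a rise. ZFAS1 was at -0.43 (-1.44 to 0.57), SNHG16 at -0.37 (-0.99 to 0.25), SNHG8 at -0.36 (-1.20 to 0.49) and SNHG6 at -0.35 (-1.27 to 0.57). GAS5, SNHG1, SNHG7, SNHG12 and SNHG15 lay between -0.07 and 0.07. SNHG16 again had no overlap, at 43.1 ± 1.85 FPKM against 58.4 ± 21.7, beside 12.5% of genes lower in this way. Control culture 3 was the highest polysomal library of the 6 for every member, and without it GAS5, SNHG6, SNHG7 and SNHG15 turned from below to above 0, to values between 0.029 and 0.36, and the median of the members was 0.065.

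**Figure D4:**
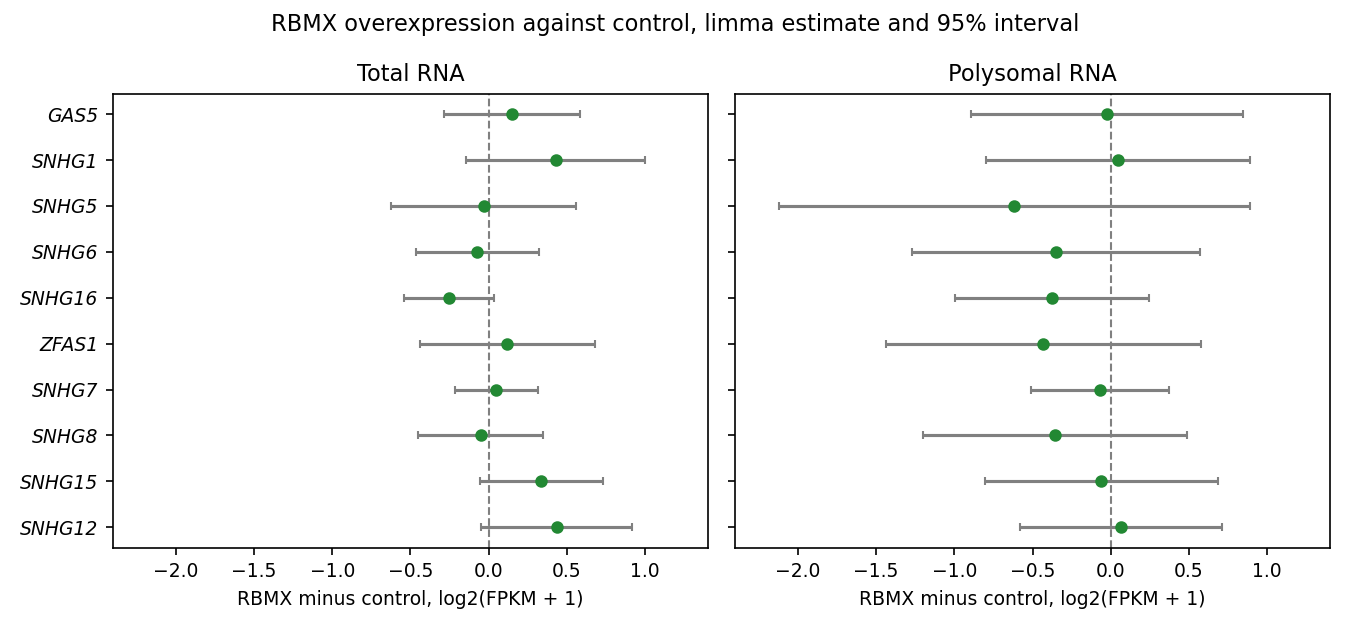
RBMX minus control difference of each host gene on the log2(FPKM + 1) scale in total RNA (left) and polysomal RNA (right), with the limma 95% confidence interval from 3 against 3 libraries. Each interval crosses 0, and the intervals are wider in polysomal RNA, where SNHG5 reaches from -2.12 to 0.89.

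Whether RBMX changed the polysomal level relative to total RNA was tested directly as the difference between the 2 fraction comparisons. All 10 estimates were below 0, from -0.58 for SNHG5 to -0.12 for SNHG7, with a median of -0.34, yet 0 of the 10 passed (limma adjusted p = 1.00 for each) and 0 had an unadjusted p under 0.05, beside 0.0204% and 0.6% of the genes tested. The 3 genes that passed in all were small RNA genes. The intervals spanned -2.13 to 0.96 for SNHG5, -1.65 to 0.55 for ZFAS1 and -0.60 to 0.36 for SNHG7. With the culture as a block 0 passed likewise, beside 0.0341% of genes. The common sign rested on control culture 3, without which GAS5 and SNHG16 stood at 0.041 and 0.061. The median was -0.16 without that culture and 0.023 without its polysomal library alone. The calls made in RBMX cells and not in control cells were therefore not shown to differ between the vectors.

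The 10 profiles resembled each other across the libraries. The log2(FPKM + 1) values of each member correlated with the mean standardised profile of the other 9 with a Pearson r between 0.922 (SNHG7) and 0.987 (ZFAS1 and SNHG6) over 12 libraries, which share cultures and fall into the 4 groups. Among 14164 other genes tested that are not small RNA genes, the pattern most like the mean profile of the members was that of EPB41L4A-AS1 (r = 0.995), itself on the list of other noncoding hosts. C6orf48 (r = 0.993), RPS21, a protein of the small ribosomal subunit (0.985), CCNB1IP1, a ubiquitin ligase (0.984), and SNHG20 (0.984) followed. SNHG20 is on that list too, and whether C6orf48, RPS21 and CCNB1IP1 carry snoRNAs was not examined. C6orf48 averaged 300.4 FPKM in control total, 168 in control polysomal, 307 in RBMX total and 143 in RBMX polysomal RNA, and RPS21 1921, 1071, 1880 and 922.

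The snoRNAs encoded within the members could not be read in the same way. The list holds 35 symbols, all with deposited values. RefSeq places 33 of them within a member, while SNORA17 and SNORA43, listed for SNHG7, were not found there by these symbols. For the 35, 211 of 420 values were listed at 0. Of these snoRNAs 3 were at 0 in every library and 28 had a group that held both a 0 and a value of at least 10 FPKM. SNORD44 of GAS5, for example, was at 0 in 9 libraries and reached 14426 FPKM in another. SNORD22 of SNHG1 and SNORA44 and SNORA61 of SNHG12 were above 0 throughout, the latter at 53.2 to 437 FPKM. SNORD28 of SNHG1 was listed at 0 in the control total and RBMX polysomal libraries, while SNORD27 of the same host was at 0 in the RBMX polysomal libraries and at 2961, 4475 and 9914 FPKM in RBMX total RNA. The host SNHG1 was at 55.5 to 71.1 FPKM in those polysomal libraries. These RNAs are short beside a sequenced fragment, the part of this in their values was not tested, and no difference is read from them.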

How the data were processed

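The authors deposited FPKM values for 25268 gene symbols in 12 libraries. The submitters' processing notes name CASAVA 1.8, TopHat2 2.0.13, Cufflinks 2.2.1, Cuffnorm and hg19, whereas the study's methods describe alignment to hg38 and counts compared with DESeq2 by the authors. The annotation behind the FPKM values is not given in the sources used here. Depth is unknown, since only 11.5 to 23.5% of genes with an FPKM up to 0.05 shared 1 step.

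Deposited FPKM entered as log2(FPKM + 1). The 14676 genes whose mean FPKM reached 0.5 were tested with limma 3.58.1 in R 4.3.3 (lmFit, eBayes with trend) and adjusted by Benjamini-Hochberg over all of them, with a threshold of 0.05. RBMX was compared with control in the 6 libraries of each fraction, polysomal with total RNA in the 6 libraries of each vector and over all 12, and the change between vectors over all 12. The added 1 shrinks the fold change of low genes. The fits were tested on simulated data. Plots and annotation used Python 3.11.15, pandas 2.3.3 and matplotlib 3.10.9, GENCODE v29 by symbol, and RefSeq for snoRNAs and starts, where SNHG6 and SNHG15 have no window in the table used.

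The members and gene lists were chosen with earlier results of these data known. Named genes are the 10 members, RBMX, the 3 most abundant of each list, any listed gene past the threshold (some coding hosts are counted but not reported here by name), and the 5 most alike in pattern. Other listed genes named with a value were chosen after their values were seen.

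By the methods total RNA was pooled from fractions of the gradient, so that a total and a polysomal library of the same number share a culture, although the labels also mention 2 dishes per transfection. As a check, the correlation over genes (small RNA genes left out) of their deviations from the group means was 0.623, 0.723 and 0.848 for the 3 control cultures, and for the RBMX cultures it was 0.231, 0.0257 and 0.692. The replicates are described as biological triplicates. The settings varied were the pseudocount (0.1), the filter (1 FPKM or none), median-ratio and quantile rescaling, small RNA genes left out, eBayes without trend, a replicate block, 1 fit of all libraries and each replicate left out. Leaving out control culture 3, each culture under the block, or each library for the nuclear RNAs was added after seeing the data.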

Additional observations from a re-analysis of the deposited data

How the results depend on the processing

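The counts of host genes lower in polysomal RNA depended on the libraries. Over both vectors 9 of 10 passed, between 4 and 10 when 1 replicate was left out, between 7 and 10 under the replicate block with a culture left out, and 10 under the replicate block (culture as the block) with all cultures. In RBMX cells 9 passed, but 4 with no filter on low values, 0 under the replicate block, 0 with all 12 libraries in one fit and 0 to 3 with 1 replicate left out. In control cells 0 passed, 0 in each fit with 1 replicate left out and 7 without control culture 3. The number of all genes called moved as well. With 1 replicate left out it was 112 to 2060 over both vectors, against 970 with all libraries. It was 10 to 42 in RBMX cells, against 196, and 12 to 26 in control cells, against 12. Under the other settings it was 259 to 2584 over both vectors, 4 to 209 in RBMX cells and 5 to 199 in control cells. For these 3 comparisons the direction of each of the 10 genes was the same under every alternative, and the cause of the changed counts was not tested.

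For RBMX against control and for the change between vectors 0 host genes passed in every alternative, the replicate block included. Single values that missed the threshold changed sign. The median of the members ran from -0.024 to 0.26 in total RNA, from -0.38 to 0.065 in polysomal RNA and from -0.51 to 0.023 for the change between vectors with 1 replicate left out. In total RNA SNHG7 was -0.024 with quantile normalization, and with 1 replicate left out GAS5 ran from -0.0077 to 0.32, ZFAS1 from -0.041 to 0.34, SNHG5 from -0.22 to 0.21, SNHG6 from -0.21 to 0.085, SNHG8 from -0.13 to 0.093 and SNHG7 from -0.021 to 0.13. In polysomal RNA the ranges with 1 replicate left out were -0.15 to 0.43 for SNHG1, -0.10 to 0.36 for SNHG12, -0.24 to 0.36 for GAS5, -0.55 to 0.029 for SNHG6, -0.18 to 0.10 for SNHG7 and -0.25 to 0.27 for SNHG15. The change between vectors ran from -0.39 to 0.21 for GAS5, -0.48 to 0.10 for SNHG6, -0.23 to 0.053 for SNHG7, -0.48 to 0.047 for SNHG8 and -0.27 to 0.16 for SNHG16, and without control culture 3 it was 0.041 for GAS5 and 0.061 for SNHG16.

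Between vectors the replicate numbers are labels without a stated pairing. Deviations of same-numbered libraries correlated with 0.347, -0.0444 and 0.0205 in total RNA and with -0.158, 0.0460 and 0.0766 in polysomal RNA, and the block on these numbers left the count of host genes at 0 in both fractions, where 13 and 3 genes passed in all. The depth is unknown, so that no counting error could be given.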
